A study of Saccharomyces cerevisiae with 4 samples.

Results

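The trans difference of a gene is its log2 ratio of BY to RM reads in a mixture of the parental haploids minus the same ratio in their hybrid. In the hybrid both alleles sit in a single nucleus and meet the same regulators, so their ratio holds the differences carried by the alleles themselves. In the mixture each allele stays in its own cells, and subtracting the hybrid ratio leaves what differs between the cells outside the allele. Every gene pair in the files was a member, whatever its value. The gene lists used below were chosen with earlier results of these data known, and many genes were named for their values. The 351 genes of chromosome XIII (names starting YML or YMR) were counted apart from the other 4091 of the 4442. Of these, 4269 passed the filter on low reads and were tested, 3931 off chromosome XIII and 338 on it.

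Messenger RNA was sequenced from 2 libraries of each culture, called replicates 1 and 2. The hybrid was the a/alpha diploid BY4741xRM11-1alpha, and the co-culture was a mixture of the haploids BY4741 and RM11-1a, both labelled MAT-a. BY4741 is a laboratory strain of Saccharomyces cerevisiae and RM11 a line from a vineyard isolate. All cultures grew at 30 °C to an OD600 of 1.0. The hybrid was a single strain, WL201, and its RM parent was not the RM strain of the mixture. The cultures therefore also differ in ploidy, in mating type and in the RM stock, and these cannot be told apart from the shared nucleus in any trans difference. According to the labels these are technical replicates, and every p-value here is set against a spread that may be technical alone.

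Yeast cells that carry different versions of a transcription factor or signalling protein express that factor's targets at different levels, although the target genes themselves may be the same. Such trans effects can reach many genes of a pathway at once, because a regulator binds short sites in front of all of them. In a hybrid the regulators of both strains are present together, and a purely trans difference between the alleles disappears.

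Reads on SNP sites numbered 1333473 to 2073694 per BY column and 1358571 to 2109435 per RM column. Each column was scaled by its own total, which removes the share of each strain in the mixture, and levels are given in CPM (the reads of an allele in proportion to its column's total). In log2 ratios of single libraries 0.5 reads were added to each allele. Fitted differences are given ± SE from the quasi-likelihood test of edgeR, and adjusted p-values follow Benjamini and Hochberg over all genes tested. A positive trans difference means that BY over RM was higher in the co-culture than in the hybrid. The pheromone receptor gene STE2 (YFL026W), a marker of a cells, had 4424 and 5309 BY reads and 6805 and 7846 RM reads in the replicate 1 and replicate 2 libraries of the co-culture. In hybrid replicates 1 and 2 it had 39 and 61 BY reads and 53 and 74 RM reads. The marker was abundant in the culture labelled MAT-a and scarce in the a/alpha diploid.

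Off chromosome XIII, 511 of 3931 genes (13.0%) had a positive and 429 (10.9%) a negative trans difference past an adjusted p of 0.05. At least 2-fold were 132 positive and 60 negative ones. The median trans difference was 0.06, with quartiles of −0.18 and 0.32. The co-culture and hybrid libraries did not overlap in 935 of the 940 called genes, and in 2317 of all 3931 tested (58.9%), so with 2 libraries a group this alone says little. Over all chromosomes 1151 genes (27.0%) were called. The balance of the directions depended on the scaling: with TMM scaling 372 were positive and 594 negative, which is 38.5% positive against 54.4%. All 801 genes called under both scalings kept their direction. With chromosome XIII genes left out of the fit and of the column totals, the balance moved the other way. Then 612 were positive and 358 negative (63.1% positive), and the median was 0.105. DESeq2 called 92 positive and 143 negative genes off chromosome XIII, and 97 of the 192 genes called at 2-fold or more. Leaving out hybrid replicate 1, hybrid replicate 2, co-culture replicate 1 or co-culture replicate 2 left 832, 691, 625 and 564 calls over all chromosomes.

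**Figure D1:**
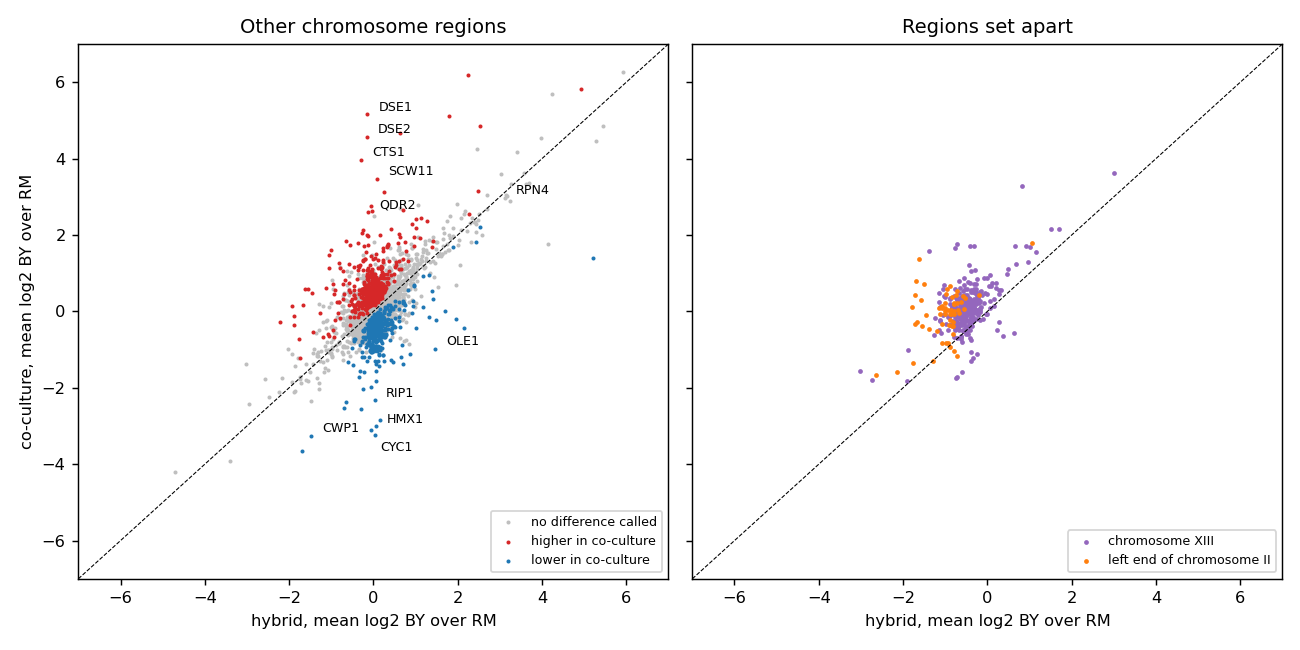
Each point is a tested gene, with its mean log2 BY over RM in the 2 hybrid libraries on the x axis and in the 2 co-culture libraries on the y axis, and the dashed line marks equal ratios. In the left panel called genes lie above the line in red (DSE1, DSE2, CTS1, SCW11) or below it in blue (CYC1, RIP1, HMX1, OLE1). In the right panel genes of chromosome XIII and of the left end of chromosome II lie mostly left of 0 on the hybrid axis. A total of 6 genes with ratios past 7 on either axis, LYS2 among them, are not drawn.

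The ratio within the co-culture was called in 1751 genes off chromosome XIII (44.5%) and that within the hybrid in 984 (25.0%). Both were called in the same direction in 605 genes and in opposite directions in 96. The share of genes with a called trans difference rose with depth, from 9.92% of the 847 genes with a mean under 50 reads per column to 55.3% of the 633 genes with 500 or more. The median SE fell from 0.42 to 0.0753 between these classes, so a difference in a gene with few reads was often not detectable at this depth. The shares of all genes set beside each gene list below were not matched for depth. Lists of deeply read genes can therefore hold more calls in either direction. Replicates 1 of both cultures and replicates 2 of both cultures give separate estimates that share no library. Over 1858 genes with at least 100 reads in each column they had a Pearson r of 0.84 and a Spearman rho of 0.72 across genes, which are not independent replicates. In 75.9% of these genes both estimates had the same sign, and their difference had an SD of 0.23.

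**Figure D2:**
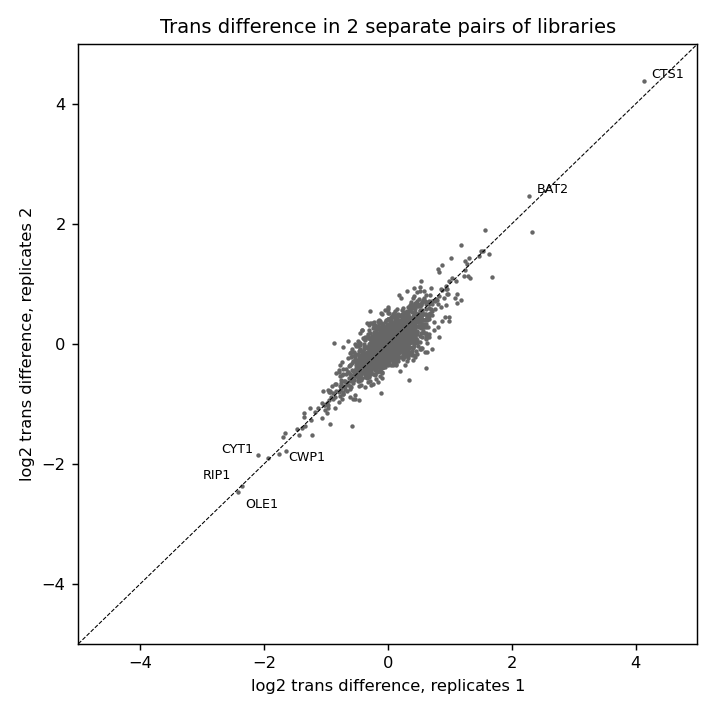
Each point is a gene off chromosome XIII with at least 100 reads in each of the 8 columns. The x axis is the log2 trans difference from replicates 1 of both cultures and the y axis that from replicates 2, and the dashed line marks equal values. CTS1 and BAT2 lie at the upper end and OLE1 and RIP1 at the lower end in both.

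Among called genes that averaged 50 or more reads a column, 4 genes that release the daughter cell from its mother had the largest positive trans differences. After division, enzymes made by the daughter cell digest the septum. DSE1 (YER124C, chrV:407342-409063, minus strand of R64) is a daughter-specific cell wall gene. Its log2 BY over RM was 5.44 and 4.88 in the replicate 1 and replicate 2 libraries of the co-culture, and −0.12 and −0.16 in the replicate 1 and replicate 2 libraries of the hybrid. The groups lay far apart, and both hybrid values were close to 0. In CPM, the BY allele stood at 592 and 585 in the co-culture and the RM allele at 13.3 and 19.5, while in the hybrid BY stood at 165 and 166 and RM at 180 and 186. The hybrid level of both alleles thus lay between the levels of the parents. The trans difference was 5.28 ± 0.17 (adjusted p = 5.41e-74).

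DSE2 (YHR143W, chrVIII:385510-386487, plus strand), another daughter-specific wall gene, had ratios of 4.56 and 4.57 in the co-culture and of −0.16 and −0.17 in the hybrid. Its trans difference was 4.74 ± 0.09 (adjusted p = 2.02e-113). CTS1 (YLR286C, chrXII:708448-710136, minus strand) encodes the endochitinase that cuts the septum. Its ratios were 3.90 and 4.03 in the co-culture and −0.24 and −0.35 in the hybrid, with a trans difference of 4.27 ± 0.05 (adjusted p = 1.48e-148). SCW11 (YGL028C, chrVII:441281-442909, minus strand), a wall glucanase gene, had ratios of 3.46 and 3.48 in the co-culture and 0.05 and 0.12 in the hybrid. Its trans difference was 3.38 ± 0.11. In all 4 genes the RM allele was low in RM cells only: SCW11 stood at 61.8 and 56.7 CPM in RM cells and at 375 and 334 CPM from the RM allele in the hybrid.

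Of 19 tested genes of daughter cell separation, 11 were positive and 0 negative (57.9% positive, against 13.0% of all genes off chromosome XIII). The median was 0.79, against 0.06 for all genes. The other called members were DSE4, a septum glucanase gene (2.07 ± 0.12), SUN4 (1.53 ± 0.06), DSE3 (1.47 ± 0.14), PRY3 (1.32 ± 0.09), AMN1 (1.06 ± 0.09), BUD9 (0.79 ± 0.19) and EGT2 (0.61 ± 0.04). DESeq2 called 10 of the 11. Some genes of the list did not pass: the kinase gene CBK1 had −0.09 ± 0.12, its partner MOB2 −0.41 ± 0.24 and the scaffold gene TAO3 −0.16 ± 0.13. The median member's BY allele was 0.41 higher in the co-culture than in the hybrid on the log2 scale, and the median RM allele changed by −0.35. Fewer daughter cells and less RNA per cell cannot be told apart in such bulk samples.

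**Figure D3:**
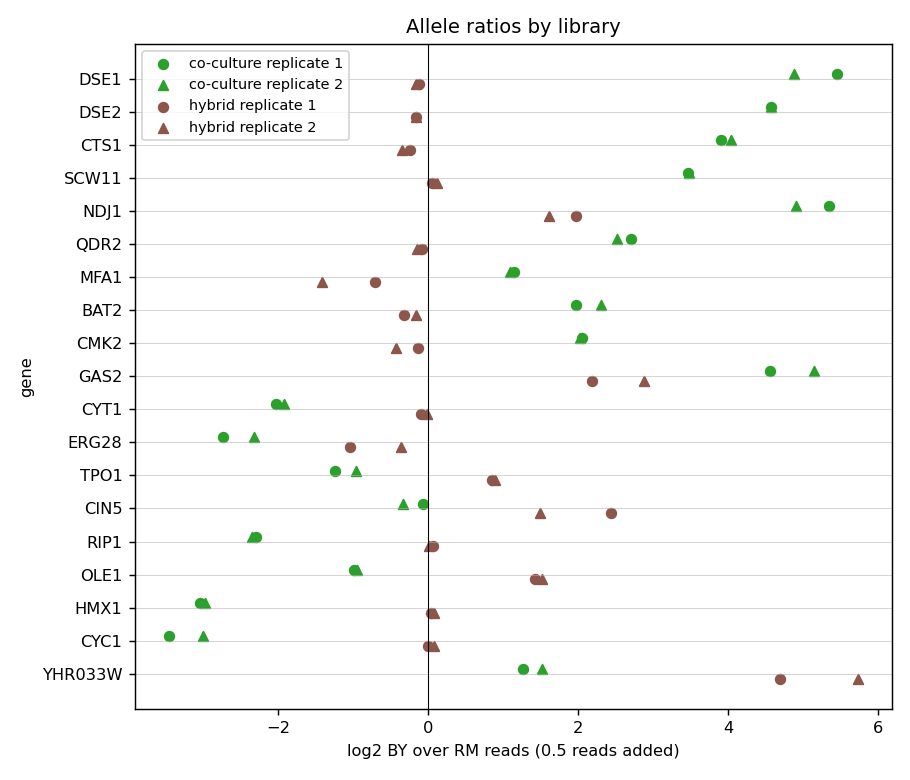
Log2 BY over RM in each of the 4 libraries (x axis, 0.5 reads added) for the 10 largest positive and 9 of the 10 largest negative trans differences off chromosome XIII (y axis, genes), among called genes that averaged 50 or more reads a column and no overlap between the cultures. Green symbols are co-culture and brown symbols hybrid, circles replicate 1 and triangles replicate 2. The co-culture and hybrid symbols of each gene do not overlap, and DSE1 has the widest gap among those drawn. LYS2 is not drawn because its RM allele had 0 reads in the hybrid.

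Genes of the mitochondrial respiratory chain had the opposite sign. The chain passes electrons from succinate and other donors through complex III and cytochrome c to oxygen, and ATP synthase uses the gradient. CYC1 (YJR048W, chrX:526335-526664, plus strand) encodes cytochrome c. Its log2 BY over RM was −3.45 and −3.0 in the replicate 1 and replicate 2 libraries of the co-culture, and −0.00 and 0.07 in the replicate 1 and replicate 2 libraries of the hybrid. The BY allele stood at 50.2 and 70.7 CPM in BY cells but at 390 and 468 CPM in the hybrid, and the RM allele at 552 and 569 CPM in RM cells and 390 and 445 CPM in the hybrid. Here it was the BY allele that was low in its own cells. The trans difference was −3.24 ± 0.11 (adjusted p = 5.93e-67).

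RIP1 (YEL024W, chrV:107260-107907, plus strand), the Rieske iron-sulfur protein of complex III, had ratios of −2.29 and −2.35 in the co-culture and 0.06 and 0.01 in the hybrid. Its trans difference was −2.36 ± 0.09 (adjusted p = 1.87e-62). CYT1 (YOR065W, chrXV:447439-448368, plus strand), the cytochrome c1 gene, had −2.02 and −1.92 in the co-culture and −0.09 and −0.02 in the hybrid, a trans difference of −1.92 ± 0.08. QCR2, a core subunit gene of complex III, had a trans difference of −1.40 ± 0.07. All of them had hybrid ratios near 0 and co-culture ratios far below it.

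Of 28 tested genes of the respiratory chain and ATP synthase off chromosome XIII, 25 were negative and 0 positive (89.3%, against 10.9% of all genes). The median was −0.85, and −0.90 in replicates 1 and −0.90 in replicates 2 alone. Members from each complex were called: SDH1 (−1.32 ± 0.17) of succinate dehydrogenase, QCR9 (−1.61 ± 0.09) of complex III, COX12 (−1.56 ± 0.14) and COX4 (−1.39 ± 0.12) of cytochrome oxidase, and ATP20 (−2.35 ± 0.49) and ATP2 (−0.79 ± 0.05) of ATP synthase. COX5B, the cytochrome oxidase isoform gene used at low oxygen, had 0.60 ± 0.30 and did not pass. In the median member the BY allele was lower in the co-culture than in the hybrid by −0.49 and the RM allele higher by 0.32 on the log2 scale. DESeq2 called 16 of the 28. The CCAAT box of the Hap2/3/4/5 activator stood before 27 of 30 measured members, against 62.6% of all genes, and the short form CGGNNNTA of the Hap1 site before 6 of 30, against 33.7%.

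Genes of heme and oxygen response fell into opposite groups. Yeast senses oxygen largely through heme, and Hap1 activates respiratory genes when heme is present. HAP4, the regulatory subunit gene of the CCAAT-binding activator, had ratios of −1.21 and −1.01 in the co-culture and 0.15 and 0.14 in the hybrid, a trans difference of −1.24 ± 0.10 (adjusted p = 6.71e-26). YHB1, a flavohemoglobin gene, had −0.88 ± 0.04 and HEM1, of the heme pathway's entry step, −0.54 ± 0.07. On the positive side were HEM13, a heme pathway gene induced at low oxygen (0.58 ± 0.17), AAC3, the low-oxygen ADP/ATP carrier gene (0.83 ± 0.26), and ANB1, a low-oxygen translation factor gene (2.08 ± 0.44). ANB1 lies next to CYC1, which had the opposite sign, and its reads are uncertain because it has a near-identical copy. Of 15 tested genes 5 were positive and 5 negative (33.3% each, against 13.0% and 10.9% of all genes), with a median of −0.43, and HAP3 among the positive and PET9 among the negative ones lie at the left end of chromosome II described below. DESeq2 called 2 positive and 5 negative genes, and without hybrid replicate 2, co-culture replicate 1 or co-culture replicate 2 the positive count was 3. In the tricarboxylic acid cycle, which feeds the chain, 5 of 12 were negative and 1 positive, against 10.9% and 13.0% of all genes. They included SDH1 and SDH2, which the respiratory list also holds, and CIT1, the citrate synthase gene (−0.56 ± 0.17). DESeq2 called 1 of the 5, and without co-culture replicate 1 or 2 the negative count was 3.

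Mitochondrial ribosomal protein genes, whose products translate the few genes of mitochondrial DNA, did not pass in 27 of 40 cases. Of the 40, 12 were negative and 1 positive (30% negative, against 10.9%), with a median of −0.37. MRPL4 had −0.98 ± 0.16 (adjusted p = 6.47e-08), RML2 −0.91 ± 0.19 and MRPS9 −0.58 ± 0.10. DESeq2 called 1 of the 12, MRPL4 being called at an adjusted p of 0.038. Without co-culture replicate 1 or 2 the count was 6 and 7. The positive member, MRPL16 (0.53 ± 0.15), lies at the left end of chromosome II.

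**Figure D4:**
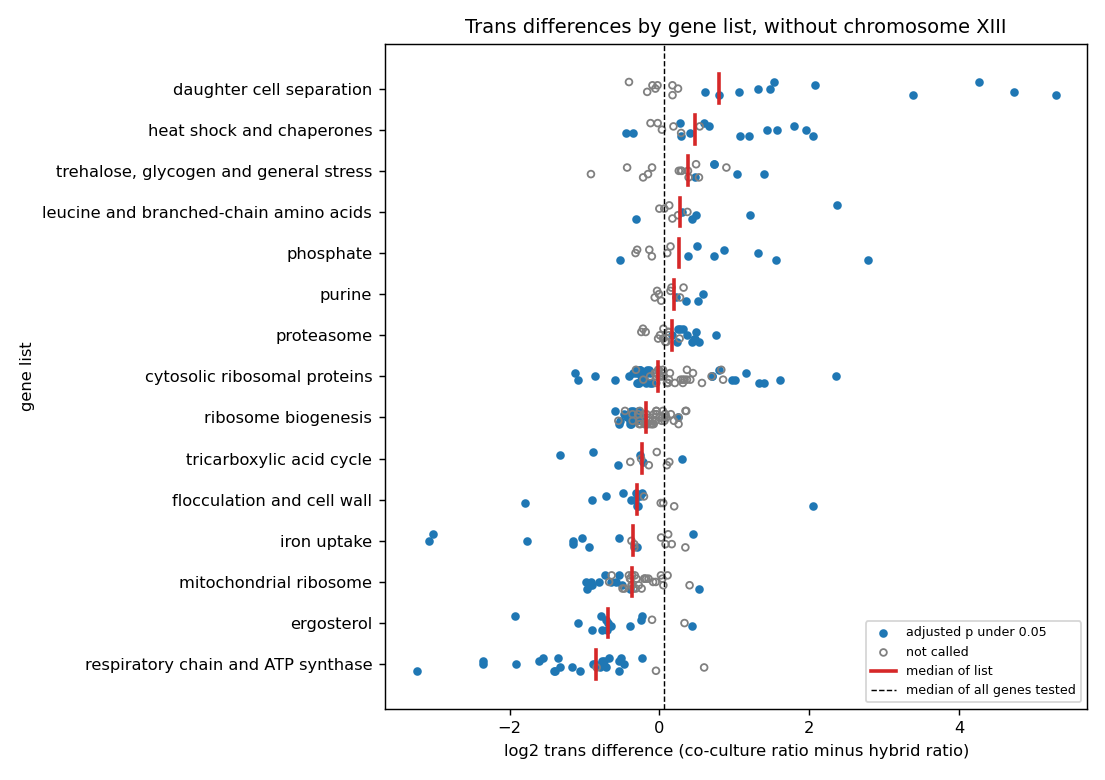
Each point is a tested gene off chromosome XIII, with its log2 trans difference on the x axis and its gene list on the y axis. Filled points had an adjusted p under 0.05, red bars mark the median of a list and the dashed line the median of all genes, 0.06. Only a chosen part of the 32 lists is drawn. Among those drawn, the daughter cell list has its median of 0.79 at the top, and the respiratory list its median of −0.85 at the bottom. The sporulation list, with a median of 1.58 over 3 genes, is not drawn.

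OLE1 (YGL055W, chrVII:398628-400160, plus strand) encodes the fatty acid desaturase, which needs oxygen and iron. Its log2 BY over RM was −0.99 and −0.95 in the replicate 1 and replicate 2 libraries of the co-culture, and 1.43 and 1.51 in the replicate 1 and replicate 2 libraries of the hybrid. The sign of the ratio changed between the cultures, and both were called. The BY allele rose from 958 and 886 CPM in BY cells to 2879 and 2667 CPM in the hybrid, while the RM allele went from 1903 and 1717 to 1072 and 933 CPM. The trans difference was −2.45 ± 0.05 (adjusted p = 3.13e-105).

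Ergosterol, the main sterol of yeast membranes, is made by a long pathway with several oxygen-dependent steps. Of 15 tested genes off chromosome XIII 12 were negative and 1 positive (80% negative, against 10.9% of all genes), with a median of −0.69. ERG25, the sterol methyl oxidase gene, had ratios of −0.93 and −0.93 in the co-culture and 0.20 and 0.13 in the hybrid, a trans difference of −1.09 ± 0.05 (adjusted p = 4.01e-52). ERG11, the sterol demethylase gene, had −0.90 ± 0.06, ERG10, of the entry step, −0.77 ± 0.04, and ERG3, a desaturase gene, −0.70 ± 0.04. ERG28, a scaffold gene of the demethylation complex, had −1.93 ± 0.33, on 10 to 102 reads per column. The positive member was HMG2, an isozyme gene of HMG-CoA reductase (0.44 ± 0.10). Its partner HMG1 (YML075C), the major isozyme, lies on chromosome XIII and had −1.01 ± 0.06, against a median of 0.58 on that chromosome. DESeq2 called 8 negative and 0 positive genes. The activator genes UPC2 (0.33 ± 0.46) and ECM22 (−0.10 ± 0.29) did not pass. The core TCGTATA of their site stood before 6 of 20 measured members, against 6.96% of all genes. Of the 13 called members off chromosome XIII, 3 held it.

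Of the iron acquisition genes that were called, 9 off chromosome XIII were negative, and VPS41 and, on chromosome XIII, FET4 were positive. The activator Aft1 switches them on when iron is scarce. HMX1 (YLR205C, chrXII:552724-553677, minus strand) encodes heme oxygenase, which recovers iron from heme. Its log2 BY over RM was −3.04 and −2.97 in the co-culture and 0.04 and 0.08 in the hybrid, a trans difference of −3.08 ± 0.23 (adjusted p = 1.58e-27). BY cells had 15 and 19.9 CPM and RM cells 126 and 158 CPM, and in the hybrid the 4 allele values lay between 64 and 70.3 CPM. FRE1 (YLR214W, chrXII:568567-570627, plus strand), a surface ferric reductase gene, had ratios of −1.01 and −0.99 in the co-culture and 0.17 and 0.14 in the hybrid, a trans difference of −1.15 ± 0.07. FRE4 (−3.02 ± 0.38) and FRE2 (−1.76 ± 0.22) are of the same reductase family. Uptake itself was represented by FTR1, the permease gene (−0.94 ± 0.06), ARN1 (−1.15 ± 0.12) and SIT1 (−0.54 ± 0.09), siderophore transporter genes, and CCC2, a copper pump gene for the iron oxidase (−1.03 ± 0.36).

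Of 18 tested iron genes off chromosome XIII, 9 were negative and 1 positive (50% negative, against 10.9%), with a median of −0.36. VPS41, a vacuolar sorting gene, was the positive one (0.44 ± 0.17), and it was not called with TMM scaling, which gave 12 negative and 0 positive genes. DESeq2 called 7 negative genes. AFT1 itself had −0.33 ± 0.14 and did not pass. FET4 (YMR319C), the low-affinity transporter gene on chromosome XIII, had a positive difference of 2.47 ± 0.14. The Aft1 site TGCACCC stood before 17 of 21 measured members and 9 of 10 called ones, against 2.38% of all genes. The stretches below come from before HMX1 (chrXII:554058-554177), FTR1 (chrV:461853-461972) and FRE2 (chrXI:11594-11713), all on the minus strand of R64, and capitals mark TGCACCC or its reverse complement. They are shown because these genes hold the site and had called negative differences.
HMX1: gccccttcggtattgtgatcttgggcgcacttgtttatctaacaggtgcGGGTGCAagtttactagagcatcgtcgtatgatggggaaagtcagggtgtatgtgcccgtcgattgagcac
FTR1: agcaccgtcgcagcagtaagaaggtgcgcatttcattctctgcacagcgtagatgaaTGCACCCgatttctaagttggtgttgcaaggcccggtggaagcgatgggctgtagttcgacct
FRE2: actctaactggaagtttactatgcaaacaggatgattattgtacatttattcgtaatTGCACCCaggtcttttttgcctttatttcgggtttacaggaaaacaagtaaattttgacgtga

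Cell wall genes other than those of daughter cells were mostly negative. CWP1 (YKL096W, chrXI:261132-261851, plus strand), a mannoprotein gene, had ratios of −3.22 and −3.30 in the co-culture and −1.47 and −1.47 in the hybrid. The RM allele was the higher one in both cultures, by more in the co-culture, and the trans difference was −1.79 ± 0.06 (adjusted p = 6.33e-66). Of 16 tested genes of flocculation and the cell wall 11 were negative and 1 positive, with a median of −0.29. The negative share was 68.8%, against 10.9% of all genes. CRH1, a chitin-glucan linking enzyme gene, had −0.71 ± 0.05, TIR3, a mannoprotein gene of low oxygen, −0.91 ± 0.12, and FKS1, the main glucan synthase gene, −0.38 ± 0.03. SPI1, a stress-induced wall gene, was positive (2.05 ± 0.30). DESeq2 called 8 negative genes and 1 positive one.

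Among 14 phosphate genes 7 were positive, 1 was negative and 6 did not pass. The factor Pho4 turns on phosphate uptake and storage genes when phosphate is scarce. VTC3 (YPL019C, chrXVI:514511-517018, minus strand), of the polyphosphate polymerase complex, had ratios of 1.87 and 2.04 in the co-culture and 0.62 and 0.66 in the hybrid, a trans difference of 1.32 ± 0.06 (adjusted p = 2e-53). SPL2 (YHR136C, chrVIII:374654-375100, minus strand), a regulator gene of low-affinity uptake, had 2.59 and 2.68 in the co-culture and 0.34 and −0.42 in the hybrid. Its hybrid values spread widely on 20 to 41 reads per column, and the difference was 2.79 ± 0.37. PHO8, the vacuolar phosphatase gene, had 1.55 ± 0.16. PHO84 (YML123C), the high-affinity transporter gene on chromosome XIII, had ratios of 1.71 and 1.71 in the co-culture and −0.40 and −0.40 in the hybrid, a difference of 2.11 ± 0.05, with reads that are uncertain because it overlaps a non-coding RNA.

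The positive share off chromosome XIII was 50%, against 13.0% of all genes, and the median was 0.27. The negative one was PHO87, a low-affinity transporter gene (−0.53 ± 0.16). DESeq2 called 4 positive and 0 negative genes. PHO4 had −0.30 ± 0.19 and did not pass. Its site CACGTG stood before 10 of 16 measured members and 7 of 8 called ones, against 6.38% of all genes. PHO87, the negative member, holds it too, and PHO8, a positive one, does not. The matches before SPL2 (chrVIII:375101-375220) and VTC3 (chrXVI:517284-517403), both on the minus strand, are shown in capitals because these genes had large called differences.
SPL2: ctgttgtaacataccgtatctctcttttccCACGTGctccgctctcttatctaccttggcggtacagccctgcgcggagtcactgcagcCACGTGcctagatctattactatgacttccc
VTC3: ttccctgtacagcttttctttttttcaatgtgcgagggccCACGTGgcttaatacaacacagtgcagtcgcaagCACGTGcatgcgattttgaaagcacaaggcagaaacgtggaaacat

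Among heat shock and chaperone genes 12 of 20 were positive and 2 negative, and 6 did not pass. HSP104 (YLL026W, chrXII:88623-91349, plus strand), the disaggregase gene, had ratios of 1.29 and 1.30 in the co-culture and 0.19 and 0.25 in the hybrid, a trans difference of 1.07 ± 0.10 (adjusted p = 2.75e-20). STI1, a co-chaperone gene of Hsp90, had 0.59 ± 0.05, SIS1 0.67 ± 0.08 and BTN2, a protein sequestration gene, 1.96 ± 0.28. HSP60 (−0.45 ± 0.04) and SSC1 (−0.35 ± 0.04), both of the mitochondrial matrix, were the negative members, while HSP78, also of the matrix, was positive (1.44 ± 0.39). The positive share was 60%, against 13.0% of all genes, and the median was 0.47. DESeq2 called 4 positive and 2 negative genes. Without hybrid replicate 2 the positive count was 8, and without co-culture replicate 2 it was 7. The Hsf1 site, written GAANNTTC, stood before 10 of 20 genes, all of them called, against 19.1% of all genes. HSP60, a negative member, holds it too. The stretches before HSP104 (chrXII:88270-88389) and STI1 (chrXV:380770-380889), both on the plus strand, are shown as examples from positive members, with the site in capitals.
HSP104: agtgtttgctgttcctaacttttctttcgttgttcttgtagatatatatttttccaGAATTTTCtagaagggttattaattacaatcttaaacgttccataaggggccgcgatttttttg
STI1: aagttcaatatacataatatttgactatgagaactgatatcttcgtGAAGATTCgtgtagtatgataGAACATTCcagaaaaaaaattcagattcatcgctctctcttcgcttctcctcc

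In the stress reserve and proteasome lists the called members were positive, but most members did not pass. Of 18 tested genes of trehalose, glycogen and general stress 5 were positive and 0 negative (27.8%, against 13.0%), with a median of 0.38. GSY2, a glycogen synthase gene, had 1.04 ± 0.15 and TPS1, the trehalose phosphate synthase gene, 0.48 ± 0.10. DESeq2 called 1 of them. Without hybrid replicate 2, co-culture replicate 1 or co-culture replicate 2 the count was 3, 3 and 2. Of 25 tested proteasome genes 12 were positive and 0 negative (48%, against 13.0%), with a median of 0.17. RPN5, a lid subunit gene, had 0.32 ± 0.07 and RPT2, an ATPase subunit gene, 0.48 ± 0.13. TMM scaling left 8 of these calls. DESeq2 left 1, the core gene PRE7, which lies at the left end of chromosome II described below. With hybrid replicate 1, hybrid replicate 2, co-culture replicate 1 or co-culture replicate 2 left out, 6, 4, 2 and 3 remained past the threshold. The Rpn4 site GGTGGCAAA stood before 20 of 27 measured members and 8 of the 12 called ones, against 1.66% of all genes.

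RPN4 (YDL020C), the activator gene of the proteasome, had no called trans difference. Its ratios were 2.76 and 3.18 in the co-culture and 2.88 and 3.38 in the hybrid, which overlap, and the difference was −0.18 ± 0.19 (adjusted p = 0.53). The BY allele was thus the higher one by a like amount in both cultures.

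Of the branched-chain amino acid genes, only BAT2 was among the 10 largest positive differences named off chromosome XIII. BAT2 (YJR148W, chrX:705744-706874, plus strand), the cytosolic branched-chain transaminase gene, had ratios of 1.97 and 2.31 in the co-culture and −0.32 and −0.16 in the hybrid, a trans difference of 2.37 ± 0.12 (adjusted p = 3.04e-47). TAT1, an amino acid permease gene, had 1.21 ± 0.07, with reads that are uncertain because it overlaps a non-coding RNA, and ILV3, a dehydratase gene of the pathway, 0.49 ± 0.05. Of 12 tested genes off chromosome XIII 5 were positive and 1 negative (41.7% positive, against 13.0% of all genes), with a median of 0.28. DESeq2 called 4. The neighbours of BAT2 were positive as well, HMS2 on one side (1.45) and YJR149W on the other (1.79). HIS4 (0.94 ± 0.15) and HIS5 (1.2 ± 0.17) of histidine synthesis were positive. In lysine and histidine synthesis together 3 of 11 were positive and 1, LYS2, negative (27.3% and 9.09%, against 13.0% and 10.9%). MMP1, the S-methylmethionine permease gene, was negative (−1.45 ± 0.11) and MET6, the methionine synthase gene, positive (0.95 ± 0.19, not called by DESeq2). Of 25 sulfur amino acid genes 4 were positive and 3 negative, close to the 13.0% and 10.9% of all genes. Of 9 arginine genes 1 was positive (11.1%, against 13.0% of all genes) and 2 were negative (22.2%, against 10.9%), among them CAR2, an arginine breakdown gene (−1.26 ± 0.10). Of 12 purine genes 4 were positive and 0 negative (33.3% positive, against 13.0% of all genes), and DESeq2 called 0 of them. At an unadjusted p of 0.05 in edgeR 5 purine genes were positive, and without co-culture replicate 2 the adjusted count was 2.

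Most genes for making ribosomes did not pass, and the called ones off chromosome XIII were mainly negative. Of 57 tested genes of ribosome biogenesis off chromosome XIII 17 were negative and 1 positive (29.8% negative, against 10.9%), with a median of −0.17. NOP1, the fibrillarin gene, had −0.54 ± 0.06 (adjusted p = 6.22e-13) and NSR1, a nucleolin gene, −0.43 ± 0.05. DESeq2 called 7 of the 17, and without hybrid replicate 2, co-culture replicate 1 or co-culture replicate 2 there were 11 in each case. Cytosolic ribosomal protein genes lay on both sides, with 10 positive and 25 negative of 67 (14.9% and 37.3%, against 13.0% and 10.9% of all genes). These shares of all genes were not matched for depth. Of genes off chromosome XIII with a mean of 500 or more reads a column, 55.3% were called in either direction. For the ribosomal protein genes TMM scaling gave 8 positive and 30 negative. DESeq2 called 2 and 8. Without hybrid replicate 2 or co-culture replicate 2 the negative count was 16, and without hybrid replicate 2 or co-culture replicate 1 the positive count was 4. Their median of −0.02 was close to that of all genes, while the SE of RPS13 and RPP0 was 0.03, so that differences as small as −0.24 and −0.29 were called. Many of these genes have near-identical copies, which makes their reads uncertain. Among 20 RNA polymerase I and III genes 1 was positive (5%, against 13.0% of all genes) and 3 were negative (15%, against 10.9%). TMM scaling gave 1 and 8, and DESeq2 called none. The positive gene, RRN10, lies at the left end of chromosome II described below.

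Other lists held few calls. Zinc genes had 3 positive and 1 negative of 10, uracil genes 2 and 1 of 9, and glycolysis 1 and 2 of 7. Genes of ras and cAMP had 1 and 1 of 10, and hexose and galactose use 0 and 0 of 11 by edgeR, with 0 at an unadjusted p of 0.05 and 0 by DESeq2. Among all genes 13.0% were positive and 10.9% negative, and with lists this small a single gene moves the share widely. The counts also moved with the method. DESeq2 called 0 zinc genes, 1 positive uracil gene, 1 negative glycolysis gene and 1 negative ras gene. That uracil gene, URA7, lies at the left end of chromosome II described below. TMM scaling gave 4 negative uracil and 4 negative glycolysis genes. Zinc had 0 positive genes without hybrid replicate 2 or co-culture replicate 1. At an unadjusted p of 0.05, 1337 genes off chromosome XIII passed, against 940 after adjustment.

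Transporters and regulators outside the lists were among the largest differences. QDR2 (YIL121W, chrIX:132244-133872, plus strand), a multidrug exporter gene, had ratios of 2.70 and 2.51 in the co-culture and −0.09 and −0.15 in the hybrid, a trans difference of 2.73 ± 0.14 (adjusted p = 4.03e-44). Its neighbour and paralog QDR1 was positive too (1.13). CMK2, a calmodulin-dependent kinase gene, had 2.37 ± 0.32. TPO1 (YLL028W, chrXII:84804-86564, plus strand), a polyamine exporter gene, had ratios of −1.24 and −0.96 in the co-culture and 0.85 and 0.90 in the hybrid, so the higher allele differed between the cultures. Its trans difference was −1.97 ± 0.12. CIN5, a stress transcription factor gene, had −2.03 ± 0.27. YHR033W, a gene of unclear function, had 1.26 and 1.52 in the co-culture and 4.69 and 5.73 in the hybrid, a difference of −3.87 ± 0.44 that rests on 5 and 3 RM reads in the replicate 1 and replicate 2 libraries of the hybrid.

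Some genes of meiosis and mating had few reads in a culture. NDJ1, a meiotic telomere protein gene, had ratios of 5.35 and 4.91 in the co-culture and 1.97 and 1.61 in the hybrid, a trans difference of 3.36 ± 0.68, on 6 and 11 RM reads in the co-culture and 3 and 8 in the hybrid. GAS2, a spore wall gene, had 2.30 ± 0.30. IME1, the inducer of meiosis, had 213 BY and 2 RM reads in the co-culture and 116 BY and 25 RM reads in the hybrid. Of 3 tested sporulation genes 2 were positive (66.7%, against 13.0% of all genes). DESeq2 called 1 of them, IME1. The other, SPO11, had 4 and 17 BY reads in hybrid replicates 1 and 2. MFA1, the a-factor gene, had a trans difference of 2.50 ± 0.77 (adjusted p = 0.00712) on 1 and 3 BY reads and 2 and 9 RM reads in the hybrid, and DESeq2 did not call it (adjusted p = 0.051). Of 6 a-specific genes 2 were positive (33.3%, against 13.0% of all genes). Of 2 alpha-specific genes 1 was negative (50%, against 10.9% of all genes). Of 7 haploid-specific genes 0 passed by edgeR, 1 at an unadjusted p of 0.05 and 0 by DESeq2. The pheromone response list had 2 positive of 12 (16.7%, against 13.0% of all genes). DESeq2 called 0 of the a-specific, alpha-specific and pheromone genes. Several of these genes had few reads in the a/alpha hybrid, which limits what their ratio there can show, while others did not. SCW10 (YMR305C), a wall glucanase gene of the pheromone list, had 1587 and 2288 BY reads there. It lies on chromosome XIII and is not among the 12 counted.

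Regulators known to differ between the strains were looked at by name. AMN1 (YBR158W, chrII:556549-558198, plus strand), which delays the exit from mitosis and daughter separation, is known to carry a coding difference between BY and RM. Its ratios were 1.08 and 1.19 in the co-culture and 0.27 and −0.06 in the hybrid, a trans difference of 1.06 ± 0.09 (adjusted p = 6.4e-23). In CPM it stood at 1057 and 1125 in BY cells and 499 and 493 in RM cells, and at 226 to 273 from either allele in the hybrid. HAP1 (YLR256W, chrXII:646415-650923, plus strand), the heme activator, carries a transposon insertion in laboratory strains related to BY. Its ratios were 1.10 and 1.23 in the co-culture and 0.53 and 0.50 in the hybrid, a difference of 0.65 ± 0.09 (adjusted p = 9.12e-11). STB5, a regulator of drug resistance genes, had −0.68 ± 0.24 (adjusted p = 0.019), which DESeq2 did not call (0.64). In IRA2, a ras inhibitor gene, BY was higher by 0.44 in both cultures and the difference was −0.00 ± 0.07. MKT1 (0.20 ± 0.10), ZAP1 (0.33 ± 0.18), OAF1 (−0.04 ± 0.11), GPA1 (−0.37 ± 0.38) and SIR3 (−0.26 ± 0.13) did not pass. Among 12 tested regulators off chromosome XIII, 2 were positive and 1 was negative. These shares of 16.7% and 8.33% were close to the 13.0% and 10.9% of all genes.

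Marker genes that laboratory stocks often carry in mutated form were listed as well. LYS2 (YBR115C, chrII:469748-473926, minus strand), of lysine synthesis, had 785 and 947 BY reads and 738 and 882 RM reads in the replicate 1 and replicate 2 libraries of the co-culture. In hybrid replicates 1 and 2 it had 872 and 1352 BY reads and 0 RM reads in both. BY was at least 754-fold higher there, taking 3 reads over the group as the floor, which covers counting error only. No other gene had a more negative trans difference. The BY allele in the same hybrid nuclei was read, both alleles were read about equally in the co-culture, and the RM parents of the cultures differ. MET17 had 533 RM and 0 BY reads over the co-culture libraries and 507 RM reads and 1 BY read over the hybrid libraries, so that no trans difference could be read. It also overlaps YLR302C. DNF2, RSC3, YJR142W and PTK1 likewise had at most 2 reads from the lower allele in each culture. TRP1 had 0.66 ± 0.18, CAN1 −0.26 ± 0.10 and ADE2 0.27 ± 0.14, of which ADE2 did not pass. In all 1 of 5 marker genes was positive (20%, against 13.0% of all genes) and 2 were negative (40%, against 10.9%). DESeq2 called LYS2 alone among them, and neither TRP1 nor CAN1.

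Chromosome XIII stood apart along its whole length. Of 338 tested genes 203 (60.1%) were positive and 8 (2.37%) negative, with a median of 0.58. Over 226 genes with at least 50 reads in each column the median log2 BY over RM was 0.01 and 0.04 in the replicate 1 and replicate 2 libraries of the co-culture, and −0.51 and −0.53 in the replicate 1 and replicate 2 libraries of the hybrid. In the hybrid 93.4% and 93.8% of these genes had a ratio below 0, against 46.1% and 44.8% elsewhere. The left and right arms were alike, with hybrid medians of −0.55 and −0.55 over 85 YML genes and −0.47 and −0.51 over 141 YMR genes. The chromosome took 11.7% and 11.6% of RM reads in the hybrid against 8.51% and 8.37% in the co-culture, and of BY reads 8.26% and 8.18% against 7.96% and 7.81%. The co-culture medians lay near 0 and the hybrid medians below it. Whether the hybrid carried the chromosome in unequal copies was not tested.

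Single genes of chromosome XIII differed from its median in both directions. GCV2 (YMR189W, chrXIII:637500-640604, plus strand), a glycine breakdown gene, had ratios of 1.66 and 1.85 in the co-culture and −0.71 and −0.71 in the hybrid, a trans difference of 2.47 ± 0.15. FET4 had 3.34 and 3.25 in the co-culture and 0.81 and 0.84 in the hybrid. DIA1 had 2.40 ± 0.31, with reads that are uncertain because it overlaps YMR316C-A. HMG1 had −1.70 and −1.78 in the co-culture and −0.73 and −0.74 in the hybrid, and RPM2, a mitochondrial RNase P gene, −1.62 and −1.80 against −0.80 and −0.66, a difference of −1.0 ± 0.08. FDO1 had −1.2 ± 0.24 and was not called by DESeq2.

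The left end of chromosome II behaved in the hybrid as chromosome XIII did, and was singled out after its values were seen. From the left end to YBL017C (chrII:9961-191583) 63 of its 64 genes were tested, of which 48 (76.2%) were positive and 2 (3.17%) negative, 24 of them positive by at least 2-fold. The median trans difference was 0.90. Over 46 genes with at least 30 reads in each column the median ratio was −0.89 and −0.89 in the replicate 1 and replicate 2 libraries of the hybrid, and −0.04 and −0.02 in the replicate 1 and replicate 2 libraries of the co-culture. In each hybrid library 45 of the 46 genes lay below 0. Over 6 of them, from YBL017C to YBL024W, the medians were −1.53 and −1.42 in hybrid replicates 1 and 2. In co-culture replicates 1 and 2 the medians of these 6 were −0.09 and −0.13. The rest of the chromosome, 213 genes, had hybrid medians of 0.02 and 0.05. The segment took 2.10% and 2.10% of RM reads in the hybrid against 1.65% and 1.65% in the co-culture, and of BY reads 1.16% and 1.16% against 1.32% and 1.32%. Its BY share was thus lower in the hybrid, while that of chromosome XIII was not. Whether the copies of this segment were unequal in the hybrid was not tested.

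**Figure D5:**
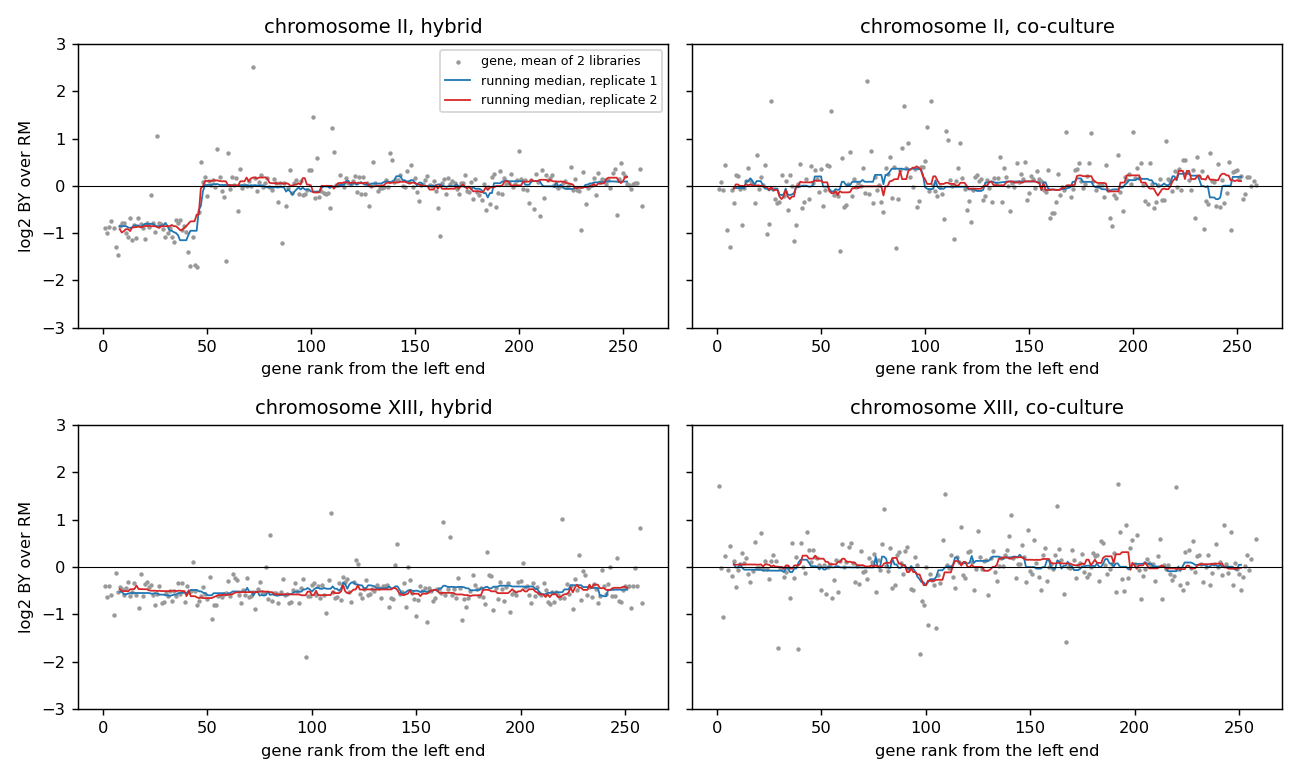
Log2 BY over RM (y axis) by gene rank from the left end (x axis) on chromosomes II and XIII, in the hybrid (left) and the co-culture (right). Grey points are genes, as the mean of 2 libraries, and lines are running medians of 15 genes in replicates 1 and 2. In the hybrid the line lies near −0.9 at the left end of chromosome II and returns to 0 in a step. Its lowest values there are −1.15 and −0.99 in replicates 1 and 2. Along chromosome XIII the hybrid line lies between −0.66 and −0.33, while in the co-culture the line stays nearer to 0. A total of 1 gene lies outside the axis.

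Running medians of 15 genes in the hybrid reached −1.15 and −0.99 on chromosome II in replicates 1 and 2. On the 14 chromosomes other than II and XIII they stayed between −0.22 and 0.33. Positive list members in the segment included PRE7, a proteasome core gene (0.76 ± 0.09), and URA7, of CTP synthesis (0.54 ± 0.06). RRN10, of RNA polymerase I (1.16 ± 0.27), and HAP3 (2.47 ± 0.39) were others. The ratios of PRE7 in hybrid replicates 1 and 2 were 1.10 and 1.00, above 0 unlike the segment's median. Whether the segment's shift entered these differences was not tested. PET9, the main ADP/ATP carrier gene, also lies there and was negative (−0.45 ± 0.04). Its ratios were −1.19 and −1.16 in the co-culture and −0.70 and −0.75 in the hybrid. Without this segment and chromosome XIII, 463 of 3868 genes were positive and 427 negative, 108 and 60 of them at 2-fold or more. In the 3843 pairs of adjacent tested genes off chromosome XIII, 30 pairs had both genes called at 2-fold or more, of which 25 had the same direction and 11 lay in the segment.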

How the data were processed

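Total RNA was extracted from 2 hybrid and 2 co-culture samples, polyA RNA was purified, and random-primed libraries were made, per the labels' protocols. Those protocols split each ligated product between 2 PCR reagents, and do not say which culture or reaction a library came from. The authors deposited, for each library, whole-number read counts of 4442 genes in a BY and an RM column. CASAVA 1.8.2 and Bowtie are named in the submitters' processing notes; for the genome build and the SNP set, the entry is: not given in the sources used here. The reads of an allele depend on its SNPs, so levels were not compared between genes.

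The 8 allele columns were scaled by their own totals and fitted in edgeR 4.0.16 (R 4.3.3) with the library as a block, after filterByExpr with a minimum count of 10, which left 2 residual degrees of freedom. The trans difference was the interaction of allele and culture, with Benjamini-Hochberg adjustment over 4269 genes and a threshold of 0.05. DESeq2 1.42.0, TMM and RLE scaling, other filters, fits without chromosome XIII and without each library were alternatives. On simulated data 61% of 1.5-fold and 91% of 2-fold differences in 200 of 4273 genes were called, and 0.123% of unchanged genes. The simulation gave all genes the same spread, taken from the fit, and unchanged genes the same ratio in both cultures. Only genes above a minimum of reads were changed. It held no spread particular to a gene and no shift of a chromosome, so these rates need not hold for the data. Replicate numbers showed no pairing in the log2 ratios: deviations of same-numbered libraries had a correlation of 0.00388 over 2833 genes. A shared effect on both alleles alike cancels in the ratio and could not be seen there.

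Names, coordinates and upstream sequences came from RefSeq R64, to which 4325 of 4442 names matched. Near-identical copies were found with blastn 2.17.0 at 90% identity over 40% of the length. Python 3.11.15 was used for summaries. Genes named were the 10 largest called differences in each direction off chromosome XIII and the 3 largest in each on it, among genes that averaged 50 or more reads a column and no overlap between the cultures, up to 4 members of each list, and the regulators and markers; a few more list members and neighbours were named after their values were seen. The members and the 32 lists were chosen with earlier results of these data known. Some results on single items are not reported here.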

Additional observations from a re-analysis of the deposited data

Results flagged for a closer look

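In 16 named genes off chromosome XIII the ratio of BY to RM was called in both cultures but in opposite directions. This held for 96 of all 3931 genes tested there, and many named genes were picked for a large or well-supported trans difference. The difference between the cultures was also called by edgeR's test of the interaction. That adds little, because ratios called on opposite sides of 0 nearly always differ. BY was the higher allele in the co-culture and the lower one in the hybrid for DSE2 (trans difference 4.74), CTS1 (4.27) and BAT2 (2.37). BY was the lower allele in the co-culture and the higher one in the hybrid for OLE1 (−2.45), TPO1 (−1.97), FRE1 (−1.15), ERG25 (−1.09), YHB1 (−0.88), ERG10 (−0.77) and CRH1 (−0.71). The same held, with smaller values, for DBP2 (−0.48), FKS1 (−0.38), SSC1 (−0.35), PFK1 (−0.33), RPS13 (−0.24) and ACO1 (−0.22).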

How the results depend on the processing

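DESeq2 called fewer genes than edgeR: 298 against 1151 for the trans difference, 92 against 511 positive and 143 against 429 negative off chromosome XIII, 57 against 203 positive on it, 758 against 1882 for the co-culture ratio and 474 against 1230 for the hybrid ratio. The cause was not tested. Leaving out 1 library, so that the lone sample was assumed to vary like the other group, gave 564 to 832 trans calls, 208 to 330 positive and 244 to 328 negative off chromosome XIII, 104 to 166 positive and 7 to 8 negative on it, 995 to 1764 co-culture ratios and 675 to 988 hybrid ratios. The remaining settings stayed within 1.5 times of each count. The median ratio of chromosome XIII moved to 0.0329 with means of log2 ratios and −0.00974 with 100 reads per column in co-culture 1, to −0.474 and −0.523 in hybrid 1, and to −0.489 with means in hybrid 2.

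Values that changed sign were those of genes not called. With 1 library left out, SAG1 ranged from −0.20 to 0.493, SUC2 from −0.0270 to 0.285, GPA1 from −0.716 to 0.45, IRA2 from −0.173 to 0.12 and RPN4 from −0.408 to 0.0884. Without chromosome XIII the trans difference was 0.0449 for IRA2 and 0.00813 for OAF1, and also without the left end of chromosome II, an alternative chosen after seeing the data, 0.0558 and 0.0191. Of 121 called named genes, 75 kept their call in all alternatives. With the replicate number as a block 1166 genes were called. The numbers showed no pairing in the log2 ratios. With 2 libraries a culture, differences in genes of few reads were often not detectable.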
